A study of Malus domestica with 12 samples.

Results

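Peel of Granny Smith apples from 2 harvests that were both prone to superficial scald was compared at the transcript level. Fruit harvested in 2017 from the plot labelled 31b (2017-P31b) was set against fruit harvested in 2015 from plot 24 (2015-P24), each through fruit of low scald harvested in 2014 from plot 24 (2014-P24). The 3 peel samples came from 20 fruit each, were untreated and were taken at an early harvest, before cold storage. They were hybridised on 4 of the 6 dual-colour arrays of the series (8 of 12 channels), all on 1 slide, with 2 channels of 2017-P31b, 2 of 2015-P24 and 4 of 2014-P24. Each harvest was paired with 2014-P24 on 2 arrays with exchanged dyes (Cy5 and Cy3), so the value of a probe was its log2 ratio to 2014-P24, and the difference was the mean ratio of 2017-P31b minus the mean ratio of 2015-P24, both of which share the 2014-P24 sample. Each harvest is 1 peel sample and its arrays are technical repeats, so the calls rest on size and not on a significance test; fits with limma, whose p-values cover technical error only, are given as an alternative after the report. Harvest year, plot and fruit pool cannot be told apart, and the study's text names the 2017 orchard differently from the label.

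Superficial scald is a browning of the apple skin that appears during and after cold storage, and it is associated with oxidation of sesquiterpenes and phenolics in the outer cell layers. Its severity varies between years and orchards of the same cultivar, and the state of the fruit at harvest is held to matter for it. Heat shock proteins are chaperones that bind or refold damaged proteins; plants make them after heat, light or oxidative stress. Phenylpropanoids, photoprotective proteins and antioxidant enzymes are further parts of the equipment with which a sun-exposed peel meets such stress.

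A probe was called when the 2 harvests differed by 2-fold or more (a difference of at least 1 on the log2 scale) in the same direction both with the high scald samples in Cy5 and with them in Cy3. Of 133709 probes, 31104 were measured on all 4 arrays and stood well above background in both channels of at least 1 of the harvests. Among these, 284 (0.913%) were called higher and 221 (0.711%) were called lower in 2017-P31b, and differences ranged between -3.17 and 3.10. Most of the transcriptome was close: 88.0% of the probes differed by less than 1.5-fold, and the median difference was -0.05. In whole peel, fewer cells of a type and less RNA per cell cannot be told apart. The 2 dye orientations gave differences that correlated by 0.675 (Pearson) and 0.609 (Spearman) across the 31104 probes; for 2014-P24 against itself, Pearson's r between the orientations was 0.22. The deviation of either orientation from their mean had a median size of 0.11 over all probes, 0.07 over the probes called higher and 0.08 over those called lower. Called probes were selected for passing in both orientations, so their smaller deviations are no separate evidence of agreement.

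**Figure D1:**
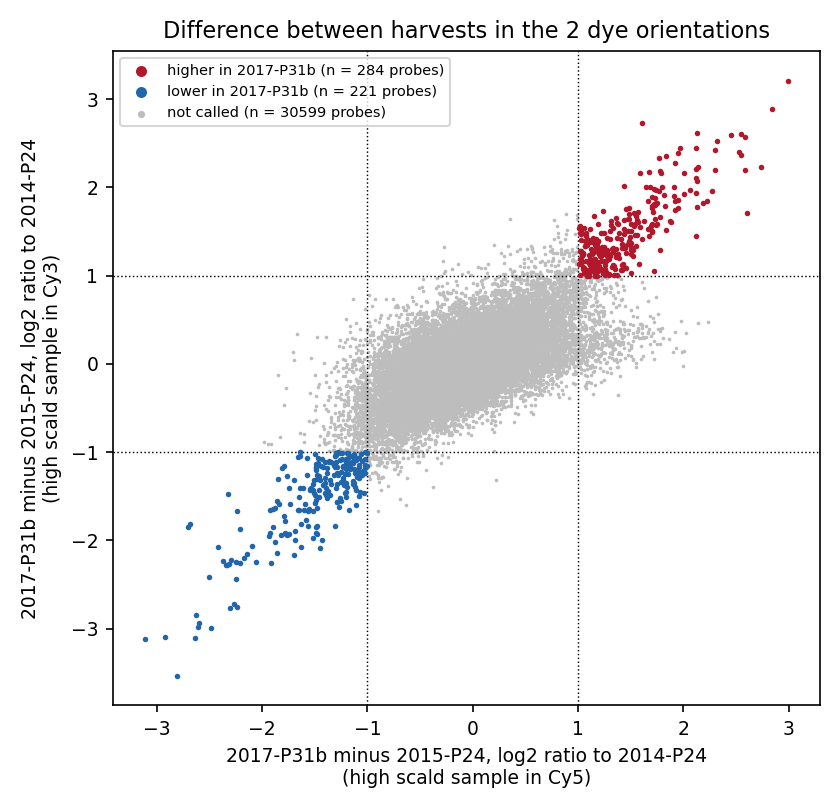
Each point is 1 of the 31104 probes, with the difference 2017-P31b minus 2015-P24 (log2 ratio to 2014-P24) from the arrays with the high scald sample in Cy5 on the x axis and in Cy3 on the y axis; dotted lines mark 2-fold. The 284 probes called higher lie in the upper right corner and the 221 called lower in the lower left, and a horizontal spur on the right holds probes that differed in the Cy5 orientation alone.

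Repeated hybridisations of 2014-P24 give the technical spread, which does not include that between fruit pools. In single channels of the same dye, the 4 hybridisations of 2014-P24 split by harvest partner differed with an SD of 0.127 over 29920 probes, against an SD of 0.388 for 2017-P31b minus 2015-P24. No probe of 2014-P24 passed 2-fold in both dyes and 38 passed it in at least 1, whereas 269 probes were higher and 187 lower in both dyes in the single channels of 2017-P31b. The largest mean difference of a probe was 3.26 for 2014-P24 against itself, above the 3.14 between the harvests in single channels. Across probes, the difference between harvests correlated by -0.284 with the difference between the 2014-P24 channels paired with 2017-P31b and those paired with 2015-P24. These channels are subtracted within the difference between harvests, so a negative correlation is built in and carries no information about the harvests. The dyes were not equal. With the high scald samples in Cy5, 355 probes were at least 2-fold higher in 2017-P31b while the Cy3 orientation showed under 0.5, and 38 showed the opposite pattern; for lower probes these counts were 236 and 9. The Cy5 channel of 2015-P24 was also the brightest, with 30.2% of probes well above background, against 23.2% in its Cy3 channel, 21.6% and 21.8% in the channels of 2017-P31b and 21.6% to 24.4% in those of 2014-P24. The part of this brightness in the differences was not tested.

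Some of the folds are only lower limits. Of the 221 probes called lower, 27 were not well above background on either array of 2017-P31b, with limits of at least 1.51- to 4.21-fold, and 186 were well above background in all 4 high scald channels. Among the 284 called higher, 5 were not well above background on either array of 2015-P24, with limits of at least 2.14- to 2.42-fold, and 268 were above it in all 4. The remaining 8 lower and 11 higher calls were above it on a single array of a harvest. Of all 31104 probes tested, 2010 were not above it on either array of 2017-P31b, and 44 on either array of 2015-P24. Leaving out 2015-P24 replicate a, its Cy3 array, gave 413 higher and 360 lower calls. Wherever an array was left out, the remaining array of that harvest was set against both arrays of the other. Dyes were then no longer matched throughout. Centring each array on its median in place of loess placed the median of the probes tested at -0.48 and gave 43 higher and 333 lower calls (11.4% of calls higher, against 56.2% with loess). Counted relative to that median, the calls were 251 and 241. Plain background subtraction gave 556 and 603.

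The calls were next read by which harvest stood away from 2014-P24. Of the 284 probes called higher, 89 departed 2-fold from 2014-P24 in 2017-P31b only and 56 in 2015-P24 only. In 6 probes the harvests lay 2-fold away on opposite sides, in 3 both lay on the same side, and in 130 neither mean reached 2-fold. The median ratio to 2014-P24 of the 284 probes was 0.78 in 2017-P31b and -0.61 in 2015-P24. Of the 221 probes called lower, 89 departed in 2017-P31b only, 70 in 2015-P24 only, 8 in both on the same side and 54 in neither, with median ratios of -0.82 in 2017-P31b and 0.50 in 2015-P24. Probes for antisense transcripts made up 8.10% of the higher calls and 8.60% of the lower calls, against 17.9% of the probes tested. Among 3202 gene models with both strands tested, the sense probe was called in 60 and the antisense probe in 7, and both were called in none. With so few calls, the lack of joint calls does not show that the strands changed independently. Across the pairs, the differences of the strands correlated by 0.415 (Pearson).

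Another high scald harvest was measured with the same probes on arrays that share no peel sample with these. On the other slide of the series, fruit of 2015 from plot 31 (2015-P31, high scald) had been compared with fruit of 2014 from plot 36 (2014-P36, low scald) on 2 dye-swapped arrays. These plots follow the sample labels, and 1 passage of the study's text gives plot 31 for 2014 and plot 36 for 2015. The Cy5 channels of that slide were dim, with 10.9% and 13.2% of probes well above background, against 29.6% and 29.5% in its Cy3 channels; the part of this in the values below was not tested. Probes called higher in 2017-P31b than in 2015-P24 had a median log2 ratio of -0.72 in 2015-P31 over 2014-P36, and 26 of the 284 (9.15%) were positive there. For the probes called lower the median was 0.44, and 191 of 221 (86.4%) were positive. Over all probes tested the median was 0.02 and 53.2% were positive. Ratios of 2-fold or more below 2014-P36 on both of those arrays were found in 75 of the probes called higher (26.4%), in 1 of the probes called lower (0.452%) and in 454 of all tested (1.46%). Ratios of 2-fold or more above it were found in 0, 21 (9.50%) and 38 (0.122%) of these sets.

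The same sets were split by the harvest that departed from 2014-P24. Both 2015-P24 over 2014-P24 and 2015-P31 over 2014-P36 set fruit of 2015 against fruit of 2014. Of all probes tested, 315 departed in 2015-P24 only, and those not called were not read in this way. All 56 probes called higher in which 2015-P24 alone lay 2-fold below 2014-P24 were also negative in 2015-P31 over 2014-P36, with a median of -1.27, and 69 of the 70 called lower in which 2015-P24 alone lay above it were positive, with a median of 0.82. Probes that departed in 2017-P31b alone had medians of -0.46 (72 of 89 negative) for the higher and 0.32 (68 of 89 positive) for the lower calls. Across the 31103 probes measured on all arrays concerned, the difference 2017-P31b minus 2015-P24 correlated by -0.404 (Pearson) and -0.351 (Spearman) with 2015-P31 over 2014-P36, as a description across probes, which are not independent replicates.

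**Figure D2:**
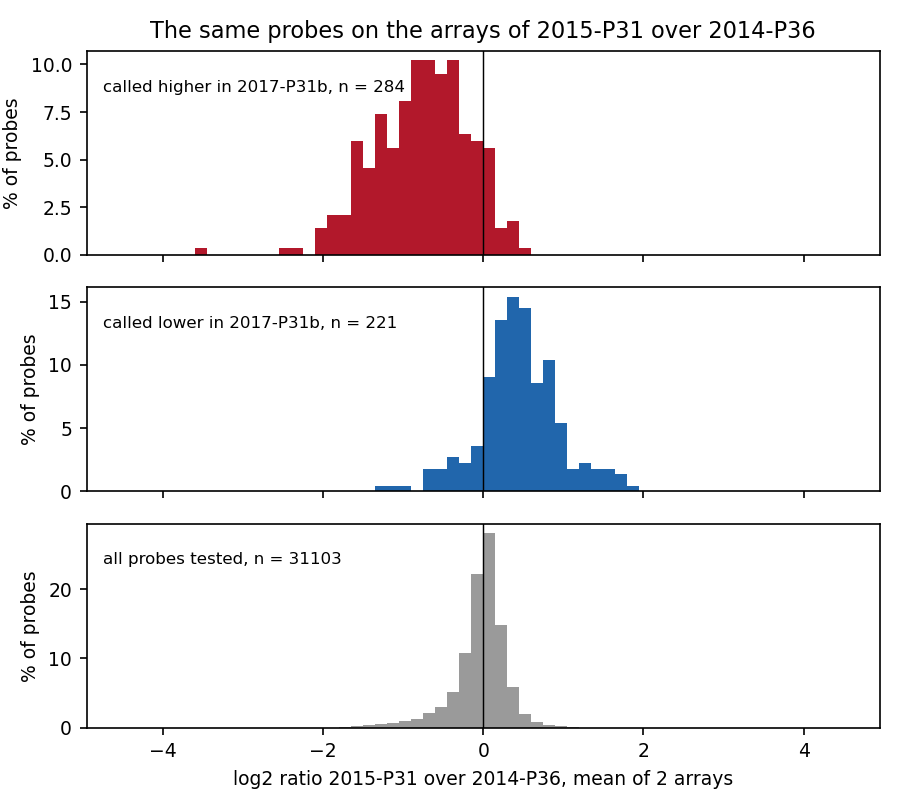
Histograms of the mean log2 ratio of 2015-P31 over 2014-P36 (x axis) as a percentage of probes (y axis) for the 284 probes called higher in 2017-P31b than in 2015-P24, the 221 called lower, and all probes tested. The upper panel lies mostly below 0 (median -0.72), the middle panel mostly above it (median 0.44) and the lower panel around it (median 0.02).

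The probes of the array carry gene model numbers without gene names. Names were taken from a supplementary table of the study, of which 820 probes were at hand; 688 of these were tested here (2.21% of the probes tested). Of the 688, 9 were called higher and 6 called lower, against 0.913% and 0.711% of all probes tested. Several of the 9 are probes of the same gene, S-adenosylmethionine decarboxylase. The study listed these probes for moving in high against low scald fruit on these same arrays, so the named genes are not a random draw, and most of the strongest differences have no name here. The largest higher calls were the gene models MDP0000259869 (a difference of 3.10, 8.57-fold), MDP0000581293 (2.86) and MDP0000573746 (2.58), and the largest lower calls were MDP0000126567 (-3.17, 8.98-fold), MDP0000183682 (-3.11) and MDP0000759336 (-3.01). MDP0000259869 had log2 ratios to 2014-P24 of 1.43 and 1.82 on the arrays of 2017-P31b, against -1.55 and -1.39 on those of 2015-P24, so the harvests lay on opposite sides of 2014-P24. MDP0000183682 lay far below 2014-P24 in 2017-P31b alone, with -3.30 and -3.15 there, against -0.19 and -0.04 in 2015-P24.

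Among the named genes that were higher in 2017-P31b, the largest difference belonged to S-adenosylmethionine decarboxylase (MD16G1057400), which commits S-adenosylmethionine to the synthesis of the polyamines spermidine and spermine. Its log2 ratios to 2014-P24 were -0.54 and -0.62 in 2017-P31b and -2.61 and -2.59 in 2015-P24, a difference of 2.01 (4.04-fold). The other probes assigned to this gene, MDP0000305630 and MDP0000120546, were also called, with differences of 1.83 and 1.06. With all 3 probes this gene was below 2014-P24 in both harvests and further below it in 2015-P24; in 2015-P31 over 2014-P36 the probes had -1.71, -1.97 and -0.72.

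The stress-related transcription factor ZAT12 (MD11G1113200), a zinc finger protein that responds to oxidative and other abiotic stress in Arabidopsis, had ratios of -1.06 and -1.03 in 2017-P31b, against -2.33 and -2.07 in 2015-P24, a difference of 1.15. A second ZAT12 gene, MD03G1099300, differed by 0.54 and was not called. ARG2 (MD03G1289900), a small protein of the late embryogenesis abundant type known in Arabidopsis as SAG21, had -0.44 and -0.25 in 2017-P31b, against -1.56 and -1.33 in 2015-P24. Its difference of 1.10 was close to the threshold. Without 2017-P31b replicate b it was 1.01 and without 2015-P24 replicate b 0.99, and not called in either case, with dyes then not matched throughout. In both genes the 2 arrays of a harvest lay together. The harvests did not overlap, which the call rule all but requires.

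Annotations disagreed for some of the other named higher calls. MD13G1027400, described as a polyribonucleotide nucleotidyltransferase but matched to an Arabidopsis protein of unknown function, had -0.03 and -0.49 in 2017-P31b and -1.47 and -1.62 in 2015-P24. Its difference of 1.28 lost its call without 2017-P31b replicate a (1.06) and without 2015-P24 replicate a (1.21), as 1 of the pairs of arrays then fell under 2-fold. An AAA-type ATPase annotated as mitochondrial (MD09G1043700) differed by 1.19 and MD09G1161200, described as a flavin-dependent thymidylate synthase but matched to an Arabidopsis ribosomal protein of the L3 type, by 1.14. A probe on the reverse strand of the gene model MDP0000361622, which the supplementary table assigns to peroxidase 42 (MD05G1345800), had -1.99 and -1.96 in 2017-P31b and -3.24 and -3.14 in 2015-P24 (1.21). With median centring the 7 named higher genes lost their calls, with differences of 0.38 to 1.34 on a scale on which the median probe stood at -0.48.

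**Figure D3:**
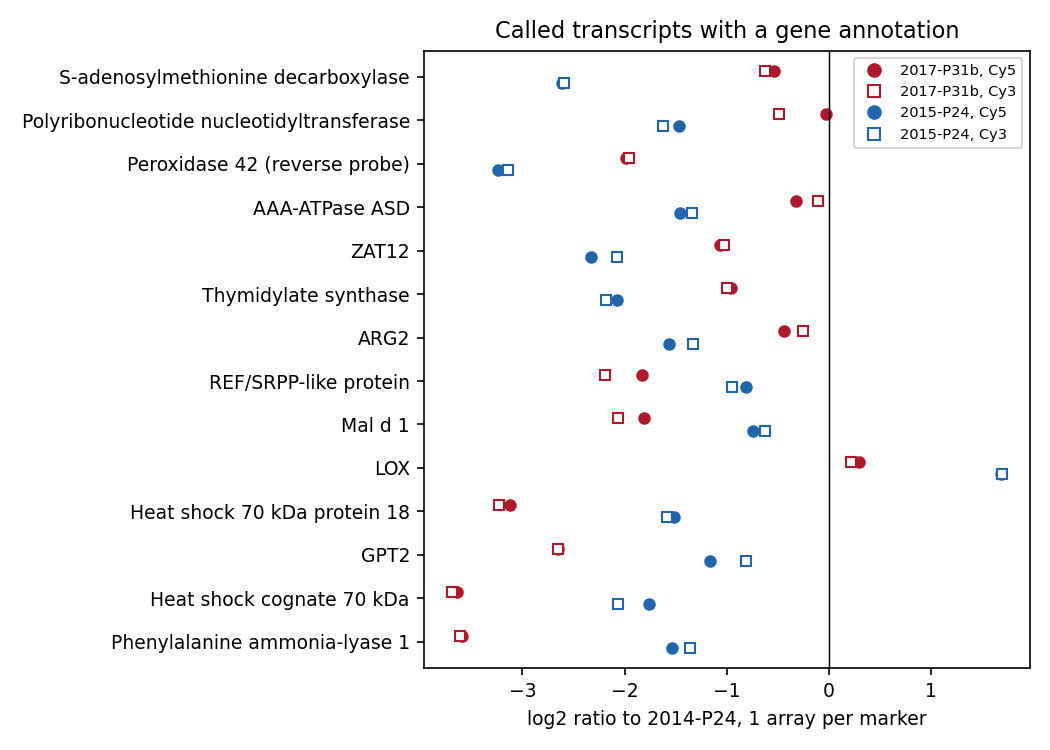
Log2 ratio to 2014-P24 (x axis) on each of the 4 arrays for the 14 called transcripts with a gene annotation (y axis); red markers are 2017-P31b and blue markers 2015-P24, filled with the high scald sample in Cy5 and open with it in Cy3. The 2 harvests do not overlap in any row, which the call rule all but requires, and LOX is the only row in which they lie above 2014-P24.

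The strongest named lower call was phenylalanine ammonia-lyase 1 (MD12G1116700), the entry enzyme of the phenylpropanoid pathway, from which lignin precursors, flavonoids and other phenolics are made. Its probe had log2 ratios to 2014-P24 of -3.59 and -3.61 in 2017-P31b, against -1.53 and -1.36 in 2015-P24, a difference of -2.15 (4.44-fold). A second probe assigned to this gene, MDP0000139075, was not well above background in both channels of either harvest and was not tested. Over the list of the phenylpropanoid and aromatic amino acid pathway this was the only call among 12 probes tested, against 0.711% of all probes called lower: the list had a median of -0.05, equal to that of all probes, and the other members lay between -0.27 for chorismate mutase 2 (MD15G1040000) and 0.54 for a cinnamyl alcohol dehydrogenase homologue annotated as mannitol dehydrogenase (MD15G1308800).

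GPT2 (MD10G1316100), which carries glucose 6-phosphate into plastids, had ratios of -2.65 and -2.65 in 2017-P31b, against -1.16 and -0.81 in 2015-P24 (a difference of -1.67). Mal d 1 (MD16G1161100), a pathogenesis-related protein of the PR-10 family and a major apple allergen, had -1.81 and -2.06 in 2017-P31b, against -0.74 and -0.62 in 2015-P24 (-1.26). The other allergen genes of this family that were tested were not called, with differences of -0.19 to 0.36 among genes annotated as Mal d 1, Pru av 1 or Pru ar 1. A protein of the rubber elongation factor family, which is found on lipid droplets (MD04G1201000), had -1.83 and -2.19 in 2017-P31b, against -0.81 and -0.95 in 2015-P24 (-1.13). It was not called in the direct comparison of single channels (-0.89), without 2017-P31b replicate b (-0.95) or without 2015-P24 replicate b (-1.06).

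Heat shock transcripts were far below 2014-P24 in both high scald harvests, and the harvests differed little from each other. The study tabulated these transcripts for being lower in high scald fruit on these same arrays. Their position below 2014-P24 follows from that choice and is no separate evidence. Of the 48 transcripts that the study tabulated on these samples, 43 chaperones and co-chaperones and 5 heat shock factors, 42 were tested and the remaining 6 had either an outlier spot on an array (BAG5) or no harvest in which both channels were well above background. Their median log2 ratio to 2014-P24 was -2.99 in 2017-P31b and -2.75 in 2015-P24. The median difference was -0.15, with -0.04 in the Cy5 and -0.28 in the Cy3 orientation, against -0.05 for all probes. No transcript was called higher and 2 were called lower, against 0.913% and 0.711% of all probes tested. In 10 transcripts both orientations were positive, and in 23 both were negative. Over all probes tested the orientations shared a sign in 71.6%. How these split by sign was not counted, so sign counts here and in the lists below are descriptions only. For 5 of the 42, 2017-P31b was not well above background on either array: 2 of these have limits of at least 1.06-fold (HSF30, MD15G1057700) and 1.22-fold (MD01G1126500) lower, and no fold can be given for the other 3.

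The 2 calls were genes of the HSP70 family, ATP-driven chaperones that fold new and damaged proteins. Heat shock 70 kDa protein 18 (MD07G1196600) had log2 ratios to 2014-P24 of -3.12 and -3.23 in 2017-P31b, against -1.52 and -1.58 in 2015-P24, a difference of -1.63 (3.09-fold). Heat shock cognate 70 kDa protein (MD07G1197200) had -3.64 and -3.69 in 2017-P31b, against -1.76 and -2.06 in 2015-P24, a difference of -1.75 (3.37-fold). In both genes 2015-P24 lay about midway between 2017-P31b and 2014-P24 on the log2 scale. Transcripts of 1 family can share sequence, so these probes may report each other's transcripts. The other HSP70 members went both ways: HSP70 protein 8 (MD13G1191900) differed by 0.65 and its relative MD16G1192600 by 0.34. The family median of -0.19 turned to 0.16 when every probe had to be above background in all 4 high scald channels and when no filter was used. It was -0.94 with plain background subtraction. With median centring it was -0.66, or -0.17 relative to the median of all probes tested under that setting.

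**Figure D4:**
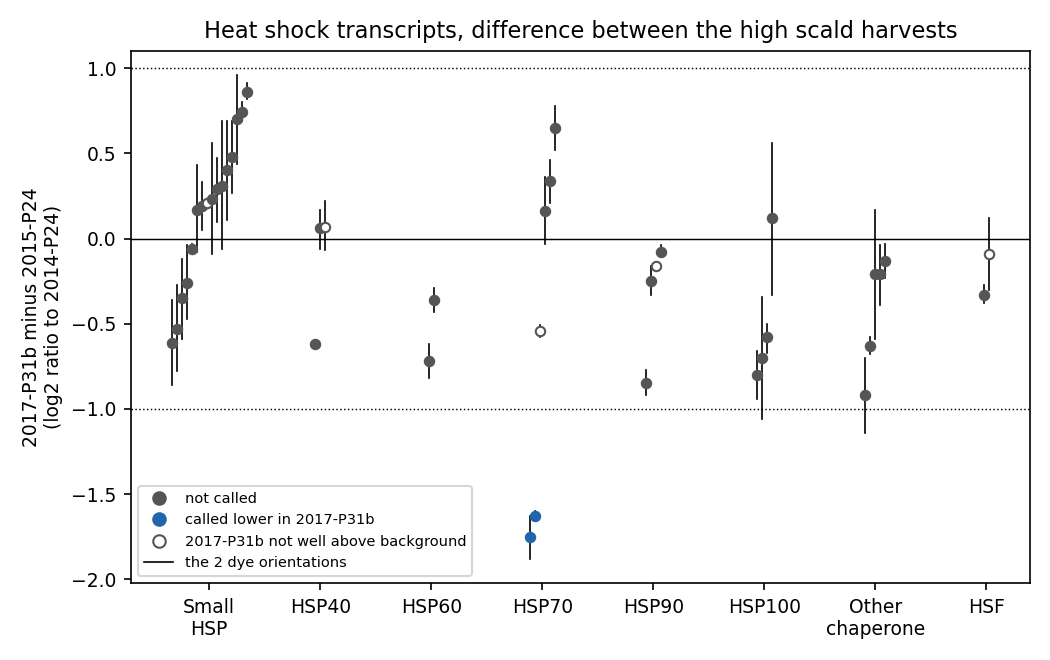
Difference 2017-P31b minus 2015-P24 (y axis, log2 ratio to 2014-P24) for the 42 heat shock transcripts tested, by family (x axis); points are means, vertical lines join the 2 dye orientations, open points mark transcripts of which 2017-P31b was not well above background, and dotted lines mark 2-fold. The 2 HSP70 transcripts called lower stand apart at -1.63 and -1.75, and the small HSP run between -0.61 and 0.86.

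Small HSPs, which bind unfolding proteins without ATP, were spread around 0. Of 16 tested members, 8 were positive and 5 negative in both orientations, and the median was 0.22. With median centring it was -0.39, or 0.1 relative to the median of all probes tested under that setting. The peroxisomal small HSP (MD09G1271100) had ratios of -1.47 and -1.37 in 2017-P31b, against -2.37 and -2.19 in 2015-P24 (0.86), and a class I small HSP (MD07G1210400) differed by 0.74. At the other end, the class III small HSP (MD17G1151000) differed by -0.61 and another of class I (MD07G1210800) by -0.53. The cytosolic class II transcript HSP17.6CII had -3.94 and -3.68 in 2017-P31b, against -4.63 and -3.79 in 2015-P24, so its arrays overlapped.

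In the HSP90, HSP100 and HSP60 families no transcript was called, and most differences were negative. All 4 HSP90 transcripts were negative in both orientations, with a median of -0.20, and MD11G1037400, annotated as a heat shock cognate protein, was lowest at -0.85. Of the 4 ClpB1 transcripts (the HSP100 disaggregase), 3 were negative in both orientations, among them MD14G1211000 (-0.80) and HSP101 (MD06G1201600, -0.70 with ratios of -3.89 and -4.24 in 2017-P31b and -3.55 and -3.18 in 2015-P24). Both mitochondrial chaperonins CPN60-2 were negative (-0.36 and -0.72). The co-chaperone HOP, which hands client proteins from HSP70 to HSP90, had differences of -0.92 (MD06G1065400) and -0.63 (MD04G1081900). The HSP40 median was 0.06 and turned negative under 8 of the alternatives. The 2 heat shock factors tested, HSF A-6b (MD03G1258300) and HSF30, differed by -0.33 and -0.09, with HSF30 not well above background in 2017-P31b. These sizes depended on the background method. With plain background subtraction the median of the 2 heat shock factors was -0.86, against -0.21 in the main setting. The HSP90 median was then -0.67.

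The study also tabulated other genes that respond to heat. Multiprotein-bridging factor 1c, a transcriptional coactivator of the heat response, was represented by MD15G1187400 (-0.81) and MD02G1050200 (-0.68), whereas Hikeshi (MD17G1258000), an import factor that takes HSP70 into the nucleus, had 0.39 and its relative MD09G1263000 had -0.26. None of the 7 tested genes of this list was called, and their median was -0.46.

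Genes of light responses had the lowest median among the lists with more than 1 tested member. Of 7 tested members of the study's list 2 were called lower (GPT2 and phenylalanine ammonia-lyase 1) and none higher, 6 were negative in both orientations, and the median was -0.94, against -0.05 for all probes and calls of 0.711% among all probes tested. HY5 (MD08G1147100), the bZIP factor at the centre of light-dependent development, had log2 ratios to 2014-P24 of -2.92 and -3.40 in 2017-P31b, against -1.94 and -2.13 in 2015-P24. Its difference of -1.13 missed a call because the Cy5 orientation gave -0.98. MYB12, an activator of flavonol synthesis genes, was represented by MD03G1297100 (-0.94) and MD11G1316800 (-0.83), while a second probe of MD03G1297100, not well above background in 2017-P31b, had -0.17. These transcripts were below 2014-P24 in both harvests and further below it in 2017-P31b. The study chose its list on these same arrays, so the position below 2014-P24 is no separate evidence.

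A second list, of light signalling and clock genes, overlaps this one in HY5 and MYB12. Its 10 tested members had a median of -0.49, 9 of them were negative in both orientations and none was called. GIGANTEA (MD10G1034200), a clock and flowering regulator, had ratios of -1.17 and -1.23 in 2017-P31b, against -0.46 and -0.51 in 2015-P24 (-0.71), and the bHLH factor UNE10 (MD07G1113200) had -1.13 and -1.20, against -0.30 and -0.34 (-0.85). The SPA genes, repressors of light signalling, differed by -0.04 to -0.26. Within the list of chloroplast and photoprotection genes the median was -0.10 and no member was called. The sigma factor SIGE (MD07G1285600) was lowest at -0.69 and PGR5 (MD16G1225200), which takes part in cyclic electron flow, highest at 0.52. A probe of the early light-induced protein gene MD14G1150400, a stress-related relative of the light-harvesting proteins, had -5.11 on the Cy5 array of 2017-P31b, against -2.22 and -1.81 in 2015-P24, but was marked as an outlier on the Cy3 array of 2017-P31b and not tested. The second probe of this gene, MDP0000296062, had -2.48 and -2.83 in 2017-P31b, where it was not well above background, against -2.36 and -2.50 in 2015-P24.

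**Figure D5:**
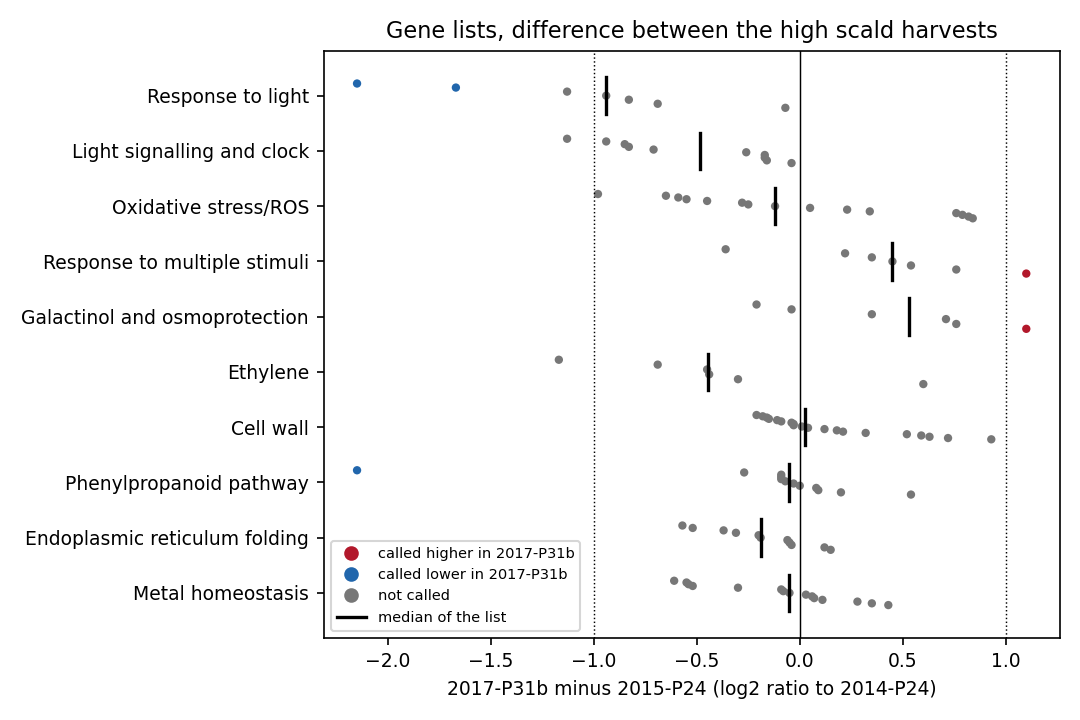
Difference 2017-P31b minus 2015-P24 (x axis, log2 ratio to 2014-P24) for the tested members of 10 gene lists (y axis); each point is a probe, coloured by its call, and bars are list medians. The response-to-light list lies furthest to the left (median -0.94) and the galactinol list furthest to the right (median 0.53).

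The lists of osmoprotection and of responses to several stimuli had medians above 0. In the list of galactinol and osmoprotection genes, 1 of 6 tested members was called higher, against 0.913% of all probes, and the median was 0.53. Both orientations were positive in 4 members and negative in 2, the lowest at -0.21. With median centring the median was -0.13, or 0.36 relative to the median of all probes tested under that setting. The 1 call was ARG2, which was not called without replicate b of either harvest (1.01 and 0.99). Galactinol synthase 1 (MD17G1280400), which makes the galactosyl donor for raffinose, was measured with 2 probes: one had ratios of -1.78 and -1.70 in 2017-P31b, against -2.50 and -2.49 in 2015-P24 (0.76), and the other differed by 0.71. Dehydrin COR47 (MD15G1253900) differed by 0.35. The study's list of genes that respond to multiple stimuli, which shares ARG2, the galactinol synthase and the dehydrin, had a median of 0.45 over 7 tested members, with 6 positive and 1 negative in both orientations.

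Antioxidant genes went both ways. Of 15 tested members of the study's list of oxidative stress and ROS processing none was called, 7 were positive and 7 negative in both orientations, and the median was -0.12. On the positive side stood the glutaredoxins C9 (MD10G1288100 with 0.84 and MD05G1309500 with 0.79), small thiol reductases, and the glutathione S-transferases of chromosome 4 (MD04G1139500 with 0.82 and MD04G1139400 with 0.76). Glutathione S-transferases of chromosome 5 stood on the negative side, with MD05G1211000 at -0.98 and MD05G1210000 at -0.65, as did 2 cytochrome c genes at -0.55 and -0.59. MD05G1211000 had ratios of -3.17 and -3.67 in 2017-P31b, against -2.46 and -2.42 in 2015-P24. In the study's list of cold responses the ATPase named above was called higher, while ferritin 3 (MD04G1164500), a plastid iron store, differed by -0.52.

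Ethylene drives ripening in apple. In the ethylene list none of 6 tested members was called, the median was -0.45 and 5 were negative in both orientations. EIN3-binding F-box protein 1 (MD02G1030300), which targets the ethylene transcription factor EIN3 for degradation, had ratios of -1.78 and -1.77 in 2017-P31b, against -0.42 and -0.78 in 2015-P24 (-1.17), and missed a call in 1 orientation. Ethylene receptor 2 (MD16G1212600) differed by -0.69, and 1-aminocyclopropane-1-carboxylate oxidase (MD09G1114800), which forms ethylene, by -0.44. A pathogenesis-related transcriptional activator of the ERF family (MD10G1286300) differed by 0.60.

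Cell wall genes centred on 0, with a median of 0.02 over 20 tested and none called. With median centring the median was -0.45, or 0.04 relative to the median of all probes tested under that setting. Xyloglucan endotransglucosylases and EXORDIUM proteins stood at the positive end. The xyloglucan enzyme MD09G1152600, which cuts and rejoins hemicellulose chains, had ratios of -0.39 and -0.57 in 2017-P31b, against -1.13 and -1.69 in 2015-P24 (0.93), and EXORDIUM MD15G1372400, a wall protein of growing tissue, differed by 0.72. Endoplasmic reticulum folding genes had a median of -0.19, with 9 of 11 tested negative in both orientations, endoplasmin (MD08G1011200) lowest at -0.57 and none called. Metal homeostasis genes (15 tested, median -0.05), UDP-glycosyltransferases (10 tested, median -0.09), nitrogen and phosphate genes (11 tested, median -0.23) and oxylipin and acyltransferase genes (8 tested, median 0.08) held no call either. In the defence list 1 of 17 tested probes (Mal d 1) was called lower, against 0.711% of all probes, and the median was 0.08. With median centring it was -0.46, or 0.03 relative to the median of all probes tested under that setting.

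Of the transcripts that the study followed by RT-qPCR, HSP17.6CII and HSP101 are given above. HSP21 (MD13G1108500) had log2 ratios to 2014-P24 of -4.32 and -4.66 in 2017-P31b, against -4.28 and -4.19 in 2015-P24 (-0.26). HSP90.1 (MD01G1208700) differed by -0.08 and HSP40 (MD10G1289200) by 0.06, and none of these heat shock transcripts was called. The remaining ones with a probe were LOX, IMS1, PPO and EXGT. Lipoxygenase LOX (MD09G1069500), which oxidises polyunsaturated fatty acids, had log2 ratios to 2014-P24 of 0.30 and 0.22 in 2017-P31b, against 1.69 and 1.70 in 2015-P24, and was called lower with a difference of -1.44 (2.71-fold). IMS1 (MD05G1155100), an isopropylmalate synthase of the leucine type, lay above 2014-P24 in both harvests, with 1.88 and 1.95 in 2017-P31b and 3.13 and 2.80 in 2015-P24. Its difference of -1.05 was not called, since the Cy3 orientation gave -0.84. Polyphenol oxidase PPO (MD10G1299400), which turns phenolics into brown quinones, had -1.07 and -1.55 in 2017-P31b and -1.96 and -1.99 in 2015-P24 (0.67). The xyloglucan enzyme EXGT (MD16G1145200) had 0.08 and 0.49 in 2017-P31b and 0.40 and 0.62 in 2015-P24, which overlapped. In 2015-P31 over 2014-P36, LOX had 0.37, IMS1 1.72, PPO -1.10 and EXGT 1.00.

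For the storage markers FAR and PR5 no probe could be matched, and they are not analysed here. The peel label could not be checked with the genes annotated here. Of the epidermal markers sought, the homeobox factor ANTHOCYANINLESS 2 (MD07G1127600) and the wax enzyme KCS13 (MD02G1050100) had probes, which were well above background in both channels of at least 1 of the harvests and differed by 0.06 and -0.45. The sugar transporter SWEET15 (MD16G1125300), sought as a vascular marker, was also above background by this measure and differed by 0.53.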

How the data were processed

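Spot and local background intensities of each channel, on a linear scale, were deposited by the authors as extracted by Agilent Feature Extraction; the authors also deposited a table of lowess-normalised log2 values, used as an alternative here. Intensities were corrected with normexp (offset 50) and loess (span 0.3, 4 iterations) in limma 3.58.1 under R 4.3.3, with control and outlier spots left out of the values; every ratio was expressed with the high scald sample on top, and spots of a probe were averaged (R package data.table, version 1.17.8). Saturated spots were kept. Well above background meant an intensity more than 2.6 SDs of the background pixels over the local background. Single channels came from Aquantile. Limits on a fold set the dim harvest at the lowest signal well above background in that channel, or its own if higher. Figures were drawn with matplotlib 3.10.9 under Python 3.11.15. The calculation was tested on simulated data.

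The comparison, its genes and the lists were chosen with earlier results of these data known. Named were the RT-qPCR transcripts with FAR and PR5, the called members of each list (or its 2 most positive and 2 most negative where there were none or more than 6), and in each direction up to 15 called probes with and 3 without a gene annotation, 1 per gene. Fold changes and p-values supplied by the study were not used. The number of arrays limits the precision. Coordinates and sequences were not used here.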

Additional observations from a re-analysis of the deposited data

Results flagged for a closer look

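Among the 4 channels of 2014-P24, 1 channel lay far from the other 3 in 6 of 106 transcripts checked (about 1 in 20 is flagged by chance), on the log2 level scale. HSP101 was at 13.34 in replicate a, with the other channels between 13.59 and 13.63. The ClpB1 probe MDP0000308722 was at 9.93 in replicate c, with the others between 10.76 and 10.90. The EIN3-binding F-box probe MDP0000165656 was at 9.99 in replicate b (others 10.12 and above), the acyltransferase probe MDP0000132952 at 8.32 in replicate a (others 8.08 or less), MDP0000363191 at 12.47 in replicate d (others 12.40) and MDP0000183682 at 11.33 in replicate a (others up to 11.52). All 4 channels are hybridisations of 1 peel sample.

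In 4 of the called probes named above both arrays of 2017-P31b and both arrays of 2015-P24 lay on opposite sides of 2014-P24, and this opposition was not tested: MDP0000259869 (difference 3.10), MDP0000581293 (2.86), MDP0000573746 (2.58) and MDP0000126567 (-3.17).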

How the results depend on the processing

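Of the alternatives tried, no call count stayed within 1.5 times of 284 and 221 under plain background subtraction (556 higher, 603 lower), median centring (43 and 333), a threshold of 1.5-fold (992 and 1065) or 3-fold (66 and 56); the last 2 change the count by construction. limma over the 4 arrays as separate ratios, which counts technical repeats only, called 1389 higher and 1610 lower at an adjusted p of 0.05 or below, and 2094 and 2407 with a dye term. With the replicate letter as a block it called 1563 and 1623; letters did not pair the arrays (r = -0.174 between their deviations), and the crossed pairing is the dye term. Leaving out single arrays, with dyes then no longer matched throughout, gave 312 to 413 higher and 232 to 360 lower calls. The heat shock median of -0.15 was -0.47 with plain subtraction, and -0.09 to -0.24 with single arrays left out. With median centring it was -0.68, or -0.19 relative to the median of all probes tested under that setting. For 2014-P24 against itself, 1.5-fold in both dyes (chosen after seeing the data, like the count relative to the median under median centring) gave 21 probes, against 0 at 2-fold. The other settings stayed within 1.5 times, and for the shifts above the cause was not tested. Named probes were followed only under the 12 settings of background, normalisation, outliers, filter and left-out arrays. Other thresholds, limma and the count relative to the median were not applied to them. Of 20 named calls, 12 held under every one of these settings and none changed sign. Of 86 named probes that were not called, 32 changed sign under at least 1 of them. With 1 peel sample per harvest, the spread between fruit pools is unknown.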
